A study of Mus musculus with 31 samples.

Results

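The genes described here are the F-box proteins and cullins of the mouse 2-cell embryo. All rows of the count table whose symbol starts with Fbxo, Fbxl or Fbxw, or is Cul followed by a number, were taken, without Fbxo5 and Fbxo43, which gave 83 of the 20544 genes in the table. They are 8 cullins, 34 Fbxo genes, 19 Fbxl genes, 13 Fbxw genes of a cluster on chromosome 9 and 9 other Fbxw genes. The Fbxl rows include Fbxl12os, an RNA from the strand opposite Fbxl12 that is not an F-box protein. All 83 had counts in at least 1 embryo, 41 of them in every embryo, and 63 passed the filter on low counts.

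RNA was measured in 31 single 2-cell embryos by Smart-seq3, 16 generated with control sperm and 15 with sperm after energy restriction and recovery (SER). In SER, sperm are held without glucose and pyruvate until they stop moving, for 15 to 45 min, and nutrients are then given back. Control sperm came from the other cauda of the male and stayed in complete medium. Sperm of C57BL/6J males aged 12 to 14 weeks were left for 4 h with oocytes of superovulated CD1 females aged 8 to 10 weeks, all wild type, and embryos were taken 32 h after insemination. Treatment was thus given to the sperm only, and the labels do not say which embryos share a male, a dish or a batch, so that p-values measure the spread between these embryos. Total counts ranged from 532945 to 2085222 in control and from 642321 to 3088396 in SER embryos. Their means were 1.05e+06 in control and 1.64e+06 in SER embryos, so that the groups differed in depth. The summed level of 7 oocyte and early embryo markers was 2559 to 9634 counts-per-million (CPM) in control and 3245 to 7328 CPM in SER embryos. The 8 cumulus and granulosa markers summed to 0 to 127 CPM in control and 0 to 12.5 CPM in SER embryos, with medians of 2.84 and 1.17 CPM, and the 6 sperm and testis markers to 0 to 24.1 and 0 to 13.9 CPM.

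Of these, 2 libraries stood apart, control replicate 4 and SER replicate 15. A 2-cell-burst score, the mean log2(CPM + 1) over 24 genes switched on at the 2-cell stage such as Zscan4 and Tdpoz genes, was 1.23 in control replicate 4 and 1.89 in SER replicate 15, against 3.46 to 5.57 in the other 29 embryos. The mean log2(CPM + 1) over 19 oocyte genes was highest in the same embryos, at 8.33 and 8.40, against 6.11 to 7.69 in the others. Results that rest on them are given with and without them.

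Cullins are the scaffolds of the cullin-RING ubiquitin ligases. A RING protein at one end of the cullin brings in the ubiquitin-conjugating enzyme, and an adaptor at the other end holds a substrate receptor. In the SCF ligases the scaffold is Cul1, the adaptor is Skp1 and the receptor is an F-box protein, whose class is named after its substrate-binding part: WD40 repeats in Fbxw, leucine-rich repeats in Fbxl and other domains in Fbxo. Protein turnover by these ligases takes part in the passage from oocyte to embryo, when maternal RNA and proteins are removed and the embryonic genome is switched on, and the Fbxw genes on chromosome 9 are known for their expression in oocytes.

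The Fbxw cluster lay at chr9:109139447-109790670 (GRCm38, GENCODE vM21), a run of 651224 bases with 14 annotated Fbxw genes and 0 other protein-coding genes. The table held 13 of them, all on the minus strand. RefSeq promoter windows, 250 bases before to 50 after the start, were matched by symbol for 63 of the 83 members and for 10 of the 13 cluster genes (GRCm38.p6). The 250 bases before the start are shown for 4 of them. Fbxw24 (chr9:109626060-109626309) was the most abundant of the cluster. Fbxw28 (chr9:109339660-109339909) and Fbxw14 (chr9:109287677-109287926) had the most alike pair of promoters. Fbxw20 (chr9:109234755-109235004) had 1 copy of the capital motif where the other 9 had 2. All are on the minus strand and are written 5′ to 3′ along the gene. Capitals mark CAGCTG, an E-box with a GC centre.
Fbxw24: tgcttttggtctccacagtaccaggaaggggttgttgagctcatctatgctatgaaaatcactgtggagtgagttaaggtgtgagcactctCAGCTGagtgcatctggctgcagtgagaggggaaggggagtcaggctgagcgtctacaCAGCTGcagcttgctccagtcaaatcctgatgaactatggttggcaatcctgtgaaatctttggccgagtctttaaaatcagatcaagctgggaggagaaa
Fbxw28: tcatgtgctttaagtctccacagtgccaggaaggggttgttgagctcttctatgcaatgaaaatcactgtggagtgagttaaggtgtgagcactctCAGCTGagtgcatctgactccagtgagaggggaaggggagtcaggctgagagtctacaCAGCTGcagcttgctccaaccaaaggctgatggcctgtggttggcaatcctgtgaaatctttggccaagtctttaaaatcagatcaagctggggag
Fbxw14: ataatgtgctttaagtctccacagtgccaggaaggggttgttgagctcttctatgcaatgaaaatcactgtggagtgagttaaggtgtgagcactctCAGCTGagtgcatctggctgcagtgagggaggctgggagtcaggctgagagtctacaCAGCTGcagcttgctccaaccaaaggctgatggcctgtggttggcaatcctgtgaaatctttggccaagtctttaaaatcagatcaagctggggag
Fbxw20: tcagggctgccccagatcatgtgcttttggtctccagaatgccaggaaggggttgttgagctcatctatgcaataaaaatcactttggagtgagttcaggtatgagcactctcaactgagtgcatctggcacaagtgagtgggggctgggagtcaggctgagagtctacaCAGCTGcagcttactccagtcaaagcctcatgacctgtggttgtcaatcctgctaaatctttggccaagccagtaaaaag

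Over the 45 pairs of the 10 cluster promoters, identity was 85.9% to 98.7% with a median of 91.6%, over 253 to 299 aligned bases. The highest was that of Fbxw14 and Fbxw28, with 293 identical bases of 297. The motif CAGCTG, which reads the same on both strands, was in 10 of 10 cluster promoters, in 9 of 53 promoters of other members, and in 16.3% of all 32851 promoters of the same length. It is 1 form of the general E-box CANNTG, which was in 10 of 10, 38 of 53 and 72.3%. The letters TTTAAA were in 9 of 10 cluster promoters, 7 of 53 others and 13.2% of all. TAATTG, an element bound by the oocyte factor NOBOX, was in 0 of 10 and 8% of all, TATAAA in 0 of 10 and 13.6%, CCAAT in 1 of 10 and 37.4%, and ATGCAAAT in 0 of 10 and 1.74%, all searched on both strands. A pair of stretches of 12 bases was present in all 10, AAATCTTTGGCC and GACTTAGGCCAC. Since the 10 promoters are copies of one another, their shared motifs are not independent counts.

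The cluster genes were measured at very different levels in embryos of the same time point. Their summed level was 302 to 2832 CPM in control embryos, with a median of 432, and 205 to 5085 CPM in SER embryos, with a median of 380. It was 5085 CPM in SER replicate 15, 2832 in control replicate 3, 1952 in control replicate 4 and 1542 in control replicate 1, and 205 to 823 CPM in the other 27 embryos. The groups overlapped, and 4 embryos held the high values. Since CPM are shares of a library, more cluster RNA in an embryo and less of its other RNA cannot be told apart. Without control replicates 1, 3 and 4, the sum was 423 ± 109 CPM in control (SD, n = 13), and without replicate 15 it was 424 ± 189 CPM in SER (SD, n = 14). As the 4 embryos were left out for their high sums, these values describe the other embryos and do not compare the groups. The oocyte list was highest in SER replicate 15 (8.40), control replicate 4 (8.33) and control replicate 3 (7.69), while control replicate 1 (7.17) ranked 11. The 5 markers of the 2-cell embryo summed to 7.54 CPM in control replicate 4 and 87.6 CPM in SER replicate 15, but to 717 CPM in control replicate 1, the highest control value. The 4 embryos were thus at opposite ends of the 2-cell-burst score, at 1.23, 1.89, 5.51 and 5.52. The part of these differences in the cluster levels was not tested.

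**Figure D1:**
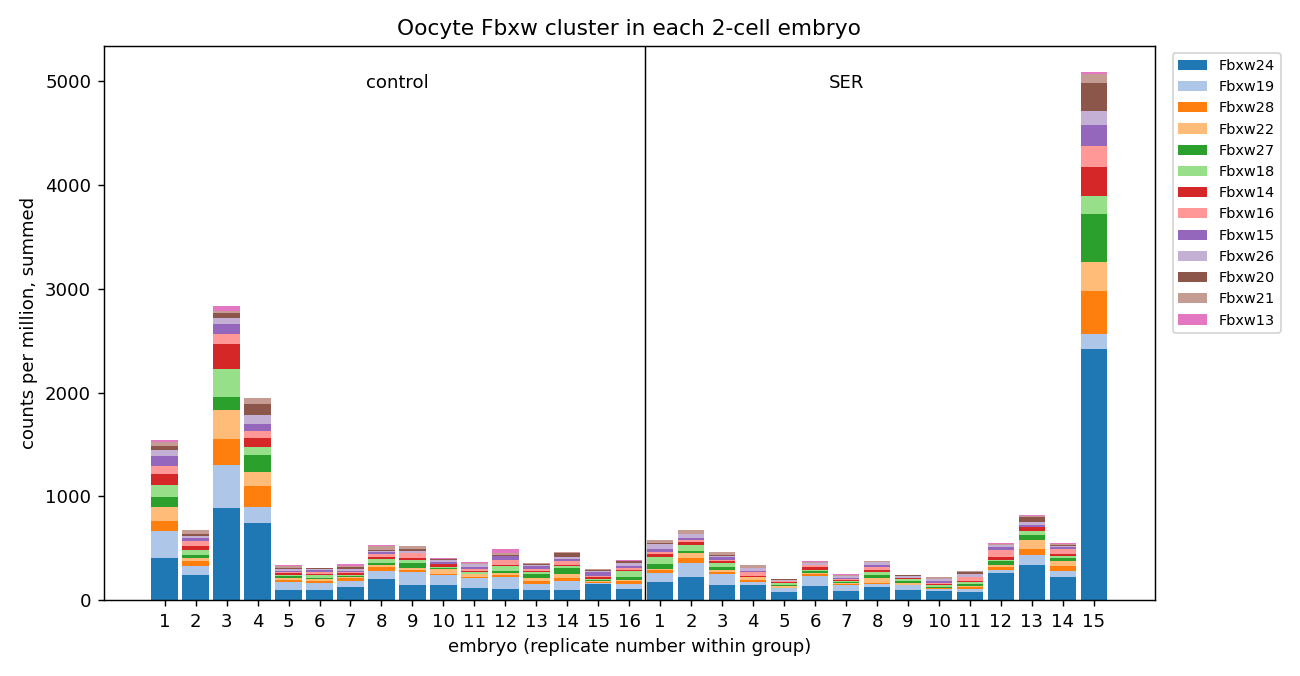
Summed CPM of the 13 Fbxw cluster genes in each embryo, one bar per embryo ordered by group and replicate number, with one colour per gene. The bars of control replicates 1, 3 and 4 (1542 to 2832 CPM) and SER replicate 15 (5085 CPM) rise above all others, which end at or below 823 CPM.

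Per exon length, Fbxw24 was the highest cluster gene in 31 of 31 embryos, with a mean of 183 CPM per exon kilobase, against 28.9 for Fbxw18, the next one. It held 34.9% of the cluster's CPM on average, between 21.8% and 50.3% in single embryos. Fbxw24 was measured at 95.5 to 892 CPM in control embryos (median 138) and 76.7 to 2416 CPM in SER embryos (median 149), with the highest value in SER replicate 15. The other 12 had means of 4.98 (Fbxw13) to 28.9 CPM per exon kilobase. Below Fbxw24, no pair of neighbours in that order kept it in every embryo. The higher one by mean was higher in 10 (Fbxw28 over Fbxw19) to 25 of 31 embryos (Fbxw26 over Fbxw20).

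Of the 13 genes, 9 had their highest value in SER replicate 15 and 4 in control replicate 3, namely Fbxw13, Fbxw18, Fbxw19 and Fbxw22. Fbxw28 was measured at 421 CPM in SER replicate 15, 253 in control replicate 3, 201 in control replicate 4 and 103 in control replicate 1, and at 3.69 to 59.6 CPM in the other 27. Fbxw14 was measured at 277, 244, 87.5 and 110 CPM in these embryos and at 5.13 to 43.6 CPM in the others. Fbxw20 was measured at 266 CPM in SER replicate 15 and 101 in control replicate 4, and at 0 to 52.7 CPM elsewhere. Fbxw27 reached 460 and 160 CPM in the same embryos, and stayed at 0.777 to 57.0 CPM outside the 4. Fbxw19 had another order, with 406 CPM in control replicate 3, 260 in control replicate 1, 157 in control replicate 4 and 146 in SER replicate 15, against 11.3 to 134 in the others. The remaining genes, Fbxw15, Fbxw16, Fbxw18, Fbxw21, Fbxw22 and Fbxw26, ranged up to 206, 201, 269, 81.4, 286 and 136 CPM. In each of 9 cluster genes, all 4 embryos lay above all 27 others, though the 4 were picked by the sum over these genes. Fbxw13 was counted in 21 of 31 embryos and did not pass the filter.

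Reads of 45 and 30 bases cannot always tell these genes apart. Of all 30-base windows of their transcripts, 16.2% to 74.7% were also found in another annotated gene, with a median of 21.7%, and of 45-base windows 7.83% to 64.4%, with a median of 10.8%. Fbxw28 (74.7%) and Fbxw14 (71.1%) shared most, and Fbxw24 21.7%. Per the study's methods, 5′ end reads were kept where they mapped to 1 place, which leaves out reads that copies share. The treatment of internal reads that fit several genes is not given in the sources used here. The levels of single cluster genes, Fbxw14 and Fbxw28 above all, are therefore uncertain.

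Among the cullins, Cul1, the scaffold of the SCF ligases, was the most abundant. Per exon length it had a mean of 209 ± 63.1 CPM per exon kilobase (SD, n = 31) and was the highest of all 83 members in 22 embryos, with Fbxo15 the highest in 6 and Fbxw24 in 3. Cul1 (chr6:47453398-47526139, plus strand) was measured at 483 to 1160 CPM in control (median 785) and 329 to 1459 CPM in SER embryos (median 810). Its range was among the narrowest of these genes. The edgeR biological coefficient of variation of Cul1 was 0.396, which is at percentile 3.78 of all tested genes, and Cul5 and Cul4b followed at percentiles 4.48 and 5.92. The median coefficient was 0.817 over the tested members, 0.995 over the tested cluster genes and 0.679 over all tested genes. Without control replicate 4 and SER replicate 15, Cul1 had 0.389, at percentile 5.36. All tested cluster genes then had lower coefficients than with them, from 0.617 (Fbxw24) to 0.946 (Fbxw22). Fbxw24 went from percentile 81.6 to 50.8.

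Cul3, the scaffold for BTB-domain receptors, came next per exon length with a mean of 72.8 ± 71.6, and Cul4b, one of the scaffolds that use the adaptor Ddb1, had 62.0 ± 22.4. These neighbours did not differ beyond their spread, with Cul3 above Cul4b in 15 of 31 embryos. Cul5 and Cul2, both scaffolds for elongin-based ligases, had means of 13.1 and 6.53, with Cul5 above Cul2 in 31 of 31 embryos. Cul4a (1.82), Cul9 (1.74) and Cul7 (0.732), the partner of Fbxw8, were the lowest. Cul4b was above its close relative Cul4a by a mean of 240 against 11.6 CPM, and Cul4a was above Cul9 per exon length in only 14 of 31 embryos. Cul7 had counts in 15 of 31 embryos and did not pass the filter.

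The Fbxo class was led per exon length by Fbxo15, a gene known as a marker of pluripotent cells, with a mean of 112 ± 106. Fbxo8 (59.7 ± 23.2), whose protein also has a Sec7 domain, Fbxo34 (58.2 ± 22.7), Fbxo11 (39.9 ± 16.9), a receptor known for BCL6, Fbxo42 (36.7 ± 13.7), a receptor known for p53, and Fbxo6 (33.8 ± 31.3), which recognises glycoproteins, followed. From Fbxo15 downwards, each of these was above the next one in 16 to 22 of 31 embryos, so that their order did not hold within embryos. The Fbxl class was led by Fbxl19 (52.0 ± 37.1), a CXXC-domain protein of CpG islands, Fbxl6 (27.7 ± 14.8) and Fbxl5 (18.0 ± 9.04), the iron sensor that targets Irp2, then by Fbxl14 (12.7), Fbxl12 (10.8) and Fbxl8 (10.3). Outside the cluster, the Fbxw class was led by Fbxw4 (79.7 ± 36.2), which is linked to the dactylaplasia limb malformation, Fbxw11 (35.3 ± 15.3), the β-TrCP2 receptor of β-catenin and IκB, Fbxw5 (17.9) and Fbxw9 (15.9), with Fbxw2 (8.27) and Fbxw8 (3.40) after them. Fbxw4 was above Fbxw11 in 28 of 31 embryos. Lower levels were measured for Fbxw7 and Fbxo7. Fbxw7, which recognises cyclin E and Myc, had a mean of 3.25 and was measured at 0 to 41.8 CPM in control and 0 to 41.1 CPM in SER embryos. Fbxo7 had a mean of 2.52.

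The 20 members that did not pass the filter had 7 (Fbxo4) to 392 (Fbxo21) counts in all over the 31 embryos. They were Fbxo4, Fbxo2, Fbxo17, Fbxo21, Fbxo24, Fbxo25, Fbxo27, Fbxo32, Fbxo39, Fbxo41 and Fbxo48, Fbxl12os, Fbxl13, Fbxl16, Fbxl21 and Fbxl22, Fbxw10 and Fbxw17, Cul7, and Fbxw13 of the cluster.

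**Figure D2:**
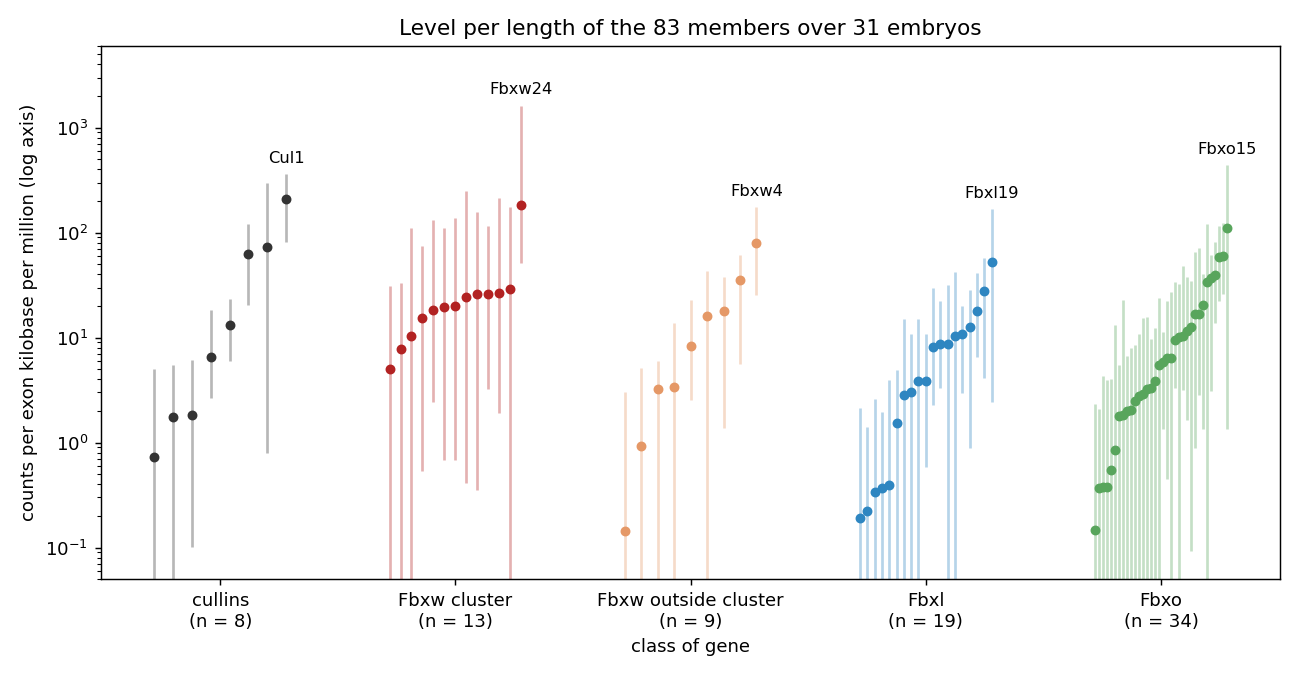
Mean level of each of the 83 members in CPM per exon kilobase (points, log axis) with the lowest to highest embryo (lines, running off the axis where the lowest is 0), by class and sorted within it. Cul1 (209), Fbxw24 (183) and Fbxo15 (112) lead, and the line of Cul1 is short beside those of Fbxw24 and Fbxo15.

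Members were compared between SER and control embryos to ask whether the sperm treatment changed them in the embryo. No member passed the test. Of the 63 tested members 0 had an adjusted p under 0.1 (edgeR quasi-likelihood test, smallest adjusted p = 0.776), and over all 8571 tested genes 0 passed, a share of 0%. The paper, with DESeq2 after batch correction, reports differentially expressed genes at that threshold and finds protein ubiquitination enriched among those upregulated. That correction could not be repeated here. At an unadjusted p under 0.05, 0 members were higher and 2 lower, against 2.18% of all tested genes higher and 3.55% lower. Among the tested members 35 were higher and 28 lower in SER embryos, and their median log2 fold change was 0.02, as was that over all tested genes. DESeq2 called 0 members, against 0.397% of all tested genes. At its unadjusted p under 0.05, 1 member was higher and 2 lower, against 240 and 378 of all 8571 tested genes. DESeq2 gave no p for Fbxw14, Fbxw15, Fbxw20, Fbxw22, Fbxw24, Fbxw27 and Fbxw28 of the cluster. It gave no adjusted p for these and for further members, among them Fbxw8, Cul2 and Cul9, so that they could not be called. Without the filter on low counts 0 of the 83 members were called, against 2.83% of all genes with a count. By class the median log2 fold change was 0.02 for the 7 tested cullins, 0.09 for 23 Fbxo genes, -0.07 for 14 Fbxl genes, 0.01 for 7 Fbxw genes outside the cluster and -0.21 for 12 cluster genes. The members took 0.574% ± 0.126 of counts in control (SD, n = 16) and 0.606% ± 0.130 in SER embryos (SD, n = 15), a difference within the spread between embryos.

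The 5 higher members with the smallest p were Fbxw2, Fbxo11, Cul5, Fbxo34 and Fbxl20, with log2 fold changes of 0.37 to 0.56. Cul5 (chr9:53614582-53670014, minus strand) was measured at 48.8 to 180 CPM in control (median 82.5) and 76.3 to 189 CPM in SER embryos (median 112). The groups overlapped, and 14 of 15 SER embryos lay above the control median. Its log2 fold change was 0.37 ± 0.20 (SE; edgeR adjusted p = 0.869), and a 2-sided permutation test of its mean CPM gave p = 0.0193. Fbxo11 (chr17:87990859-88065291, minus strand) was measured at 60.4 to 252 CPM in control (median 151) and 79.4 to 362 CPM in SER embryos (median 196). It was above the control median in 11 of 15 SER embryos, with a log2 fold change of 0.43 ± 0.22 (SE; edgeR adjusted p = 0.869) and a permutation p of 0.0194. The permutation p was 0.0642 for Fbxw2 (log2 fold change 0.56), 0.0502 for Fbxo34 (0.37) and 0.0642 for Fbxl20 (0.37). As the members were picked by their p for the same difference, these permutation values, 10 in all and not adjusted, describe them only.

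The 5 lower members with the smallest p were Fbxw19, Fbxo36, Fbxl14, Fbxw4 and Fbxl19. Fbxw19 of the cluster was measured at 11.3 to 406 CPM in control (median 84.9) and 20.7 to 146 CPM in SER embryos (median 58.9). The groups overlapped, the values above 146 being those of control replicates 1, 3 and 4. Its log2 fold change was -0.90 ± 0.37 (SE; edgeR adjusted p = 0.776, permutation p = 0.0559), and 10 of 15 SER embryos lay below the control median. Fbxo36 was measured at 6.04 to 152 CPM in control (median 31.3) and 10.7 to 64.1 CPM in SER embryos (median 22.0), with a log2 fold change of -0.89 ± 0.40 (SE; edgeR adjusted p = 0.809, permutation p = 0.103). Fbxl14, a receptor known for Snail1, had a log2 fold change of -0.56 and a permutation p of 0.0615, Fbxw4 of -0.41 and 0.146, and Fbxl19 of -0.42 and 0.273. In Fbxl14 12 of 15 and in Fbxw4 and Fbxl19 11 of 15 SER embryos lay below the control median.

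Without control replicate 4 and SER replicate 15, 0 members were called and 1 was higher and 5 lower at an unadjusted p under 0.05 (2.9% of all tested genes higher and 4.88% lower). The median log2 fold change of the cluster genes was then -0.98, with control replicates 1 and 3 still in the control group. With limma voom and quality weights 4 members passed, Cul2, Cul5 and Fbxo15 as higher and Fbxo30 as lower, where 4.56% of all tested genes were called higher and 5.33% lower. The log2 fold change under voom was 0.76 for Cul2, 0.51 for Cul5, 1.02 for Fbxo15 and -1.25 for Fbxo30, against 0.37, 0.37, 0.17 and 0.07 under edgeR, so that Fbxo30 differed in sign between the tools. Fbxo30 was measured at 10.7 to 250 CPM in control (median 69.6) and 4.58 to 337 CPM in SER embryos (median 34.9).

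**Figure D3:**
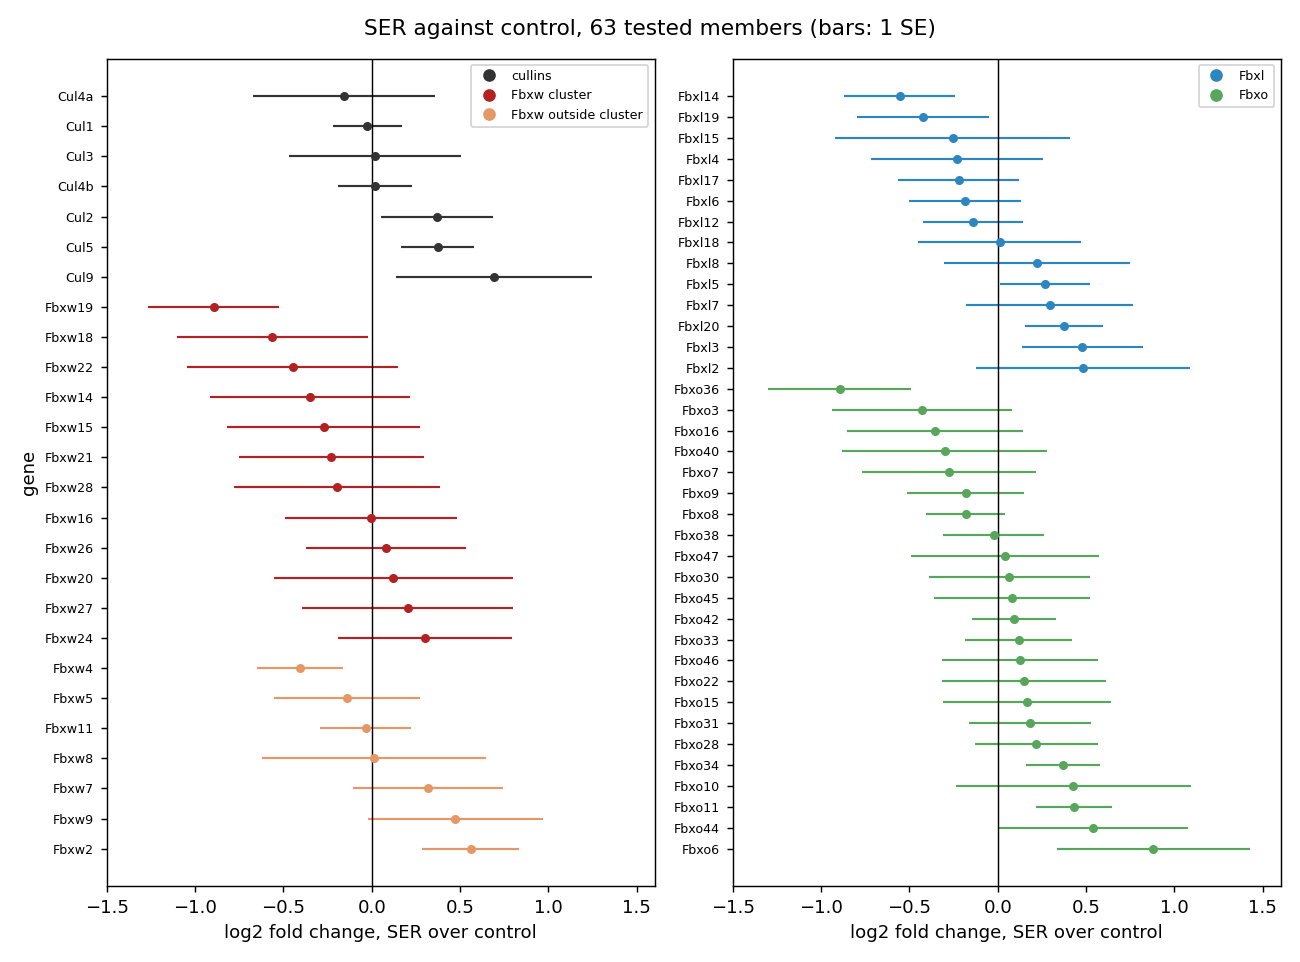
Log2 fold change of the 63 tested members, SER over control, from edgeR (points, bars 1 SE), in colours by class. The points lie on both sides of 0, with Fbxw19 (-0.90) and Fbxo36 (-0.89) the lowest.

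To ask how the members moved with the 2-cell-burst genes, the slope of each on the 2-cell-burst score was estimated. The treatment group was in the model, and the score was in units of its SD over the 31 embryos. Whether the score measures the activation of the embryonic genome beyond its 24 genes was not tested. The score holds no member. With all embryos 12 members rose and 12 fell with the score (edgeR, adjusted p under 0.1), against 21.7% of all tested genes rising and 13.7% falling. The risers were Cul3, Fbxl6, Fbxo6, Fbxo11, Fbxo15, Fbxo16, Fbxo33, Fbxo36, Fbxo45, Fbxo47, Fbxw9 and Fbxw11. The genes that fell were Fbxl2, Fbxl20, Fbxo9, Fbxo28, Fbxo46, Fbxw8 and 6 of the cluster, Fbxw15, Fbxw20, Fbxw24, Fbxw26, Fbxw27 and Fbxw28. Control replicate 4 and SER replicate 15 weighed heavily in these slopes. Without control replicate 4, 9 members rose and 5 fell, against 13.1% and 7.71% of all tested genes. Without SER replicate 15, 8 rose and 3 fell, against 12.8% and 4.28%. Without both, 13 rose and 2 fell, against 6.44% and 1.02% of all tested genes, and only 4 of the 12 risers and 1 of the 12 fallers were shared.

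Cul3 and Fbxo15 had the steepest slopes with all 31 embryos and rose in both sets. Cul3 (chr1:80264923-80340480, minus strand) was measured at 13.6 CPM in control replicate 4 and 3.89 CPM in SER replicate 15, and at 61.0 to 1446 CPM in the other 29 embryos (median 249). Its slope was 1.42 ± 0.21 log2 units per SD (SE; edgeR adjusted p = 2.16e-05), and 1.35 ± 0.28 without both embryos (adjusted p = 0.00397). Fbxo15 was measured at 4.53 and 33.1 CPM in the same embryos and at 87.5 to 1478 CPM in the others (median 240). Its slope was 1.38 ± 0.20 (adjusted p = 1.1e-05), and 1.40 ± 0.27 without both (adjusted p = 0.00225). When control replicates 1 and 3 were left out too, the slopes of Cul3 and Fbxo15 were 1.21 and 1.15, with adjusted p of 0.109 and 0.116. Among all 1953 pairs of tested members, Cul3 and Fbxo15 were also the most alike over the embryos, with a Spearman correlation of 0.92 over 31 embryos and 0.90 over 29. The pair was picked for this value, and the 2 genes share libraries and depth. Fbxo45 was next for Cul3, with 0.84 and 0.80.

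The other risers named by p were Fbxo33, Fbxl6 and Fbxo45, the last known from synapse formation. Their slopes were 0.75 ± 0.15, 0.64 ± 0.15 and 0.94 ± 0.25 (SE; edgeR adjusted p = 0.000447, 0.00228 and 0.00519). Without both embryos they were 0.48, 0.59 and 0.57, with adjusted p of 0.171, 0.142 and 0.257. Fbxo45 was measured at 3.02 and 0.389 CPM in the 2 embryos and at 8.74 to 146 CPM in the others. Fbxo16 and Fbxo47, named after their values were seen, rose in both sets. Their slopes were 0.77 and 0.64 over all embryos (edgeR adjusted p = 0.0159 and 0.0388). Without both they were 1.11 and 1.63 (adjusted p = 0.0673 and 0.0138). When control replicates 1 and 3 were left out too, Fbxo16 had a slope of 0.60 (adjusted p = 0.694) and Fbxo47 was not tested. Fbxw9, Fbxo6 and Fbxw11 rose over all embryos, with slopes of 1.00, 0.92 and 0.40, and had slopes of 0.16, 0.08 and 0.06 without both (adjusted p = 0.875, 0.943 and 0.903). The other cullins did not pass in either set. Cul1 had slopes of 0.04 and 0.34, Cul4b of 0.20 and 0.24, Cul5 of 0.12 and 0.36 and Cul2 of 0.24 and 0.62. Cul9 had slopes of 0.76 and -0.19 and Cul4a of 0.01 and -0.53, so that both changed sign.

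Fbxw8, which works with Cul7 rather than Cul1, fell in both sets. It lies at chr5:118064965-118155464 on the minus strand, and was measured at 25.7 CPM in control replicate 4 and 76.7 CPM in SER replicate 15, and at 0 to 65.5 CPM in the others (median 13.1). Its slope was -1.27 ± 0.31 (SE; edgeR adjusted p = 0.00246), and -1.98 ± 0.46 without both embryos (adjusted p = 0.0105). Of its 30-base windows 32.1% were found in another gene, and 1845 bases of its exons overlap Gm9754 on the other strand. Fbxo28 was measured at 158 and 255 CPM in the 2 embryos and at 16.7 to 101 CPM in the others. Its slope was -0.59 ± 0.11 (adjusted p = 0.000136) and -0.23 ± 0.24 without them (adjusted p = 0.634). Fbxo9 had slopes of -0.39 and 0.02 (adjusted p = 0.0159 and 0.971). Fbxo31, a receptor known for cyclin D1, had a slope of -0.05 over all embryos and fell without both, with a slope of -0.75 (edgeR adjusted p = 0.0969). The difference between the slopes of the 2 sets was not tested.

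**Figure D4:**
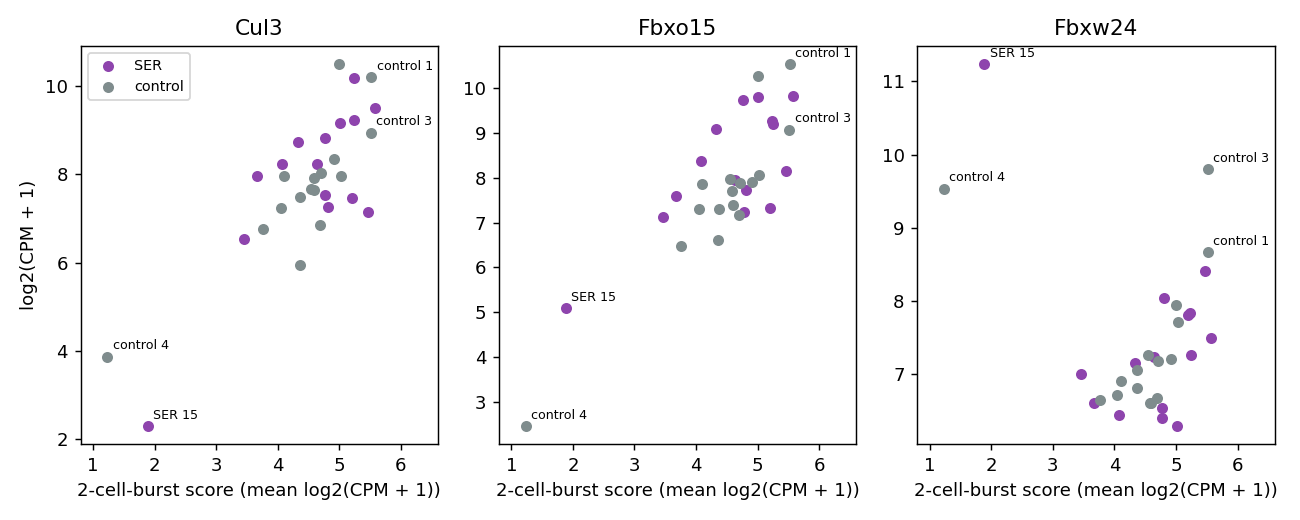
Log2(CPM + 1) of Cul3, Fbxo15 and Fbxw24 against the 2-cell-burst score, one point per embryo, coloured by group, with 4 embryos labelled. Cul3 and Fbxo15 are lowest in control replicate 4 and SER replicate 15 and climb with the score in the others, while Fbxw24 is high in these embryos and also at the upper end of the score.

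The cluster changed direction with these embryos. It also did so when 3 clusters of embryos, estimated from the data, were added to the fit. Control replicate 4 and SER replicate 15 alone made up a cluster, so that this fit is not separate from leaving them out. In it 15 members rose, against 5.4% of all tested genes, and 10 of them were Fbxw cluster genes. With all 31, 11 of the 12 tested cluster genes had negative slopes, from -0.69 to 0.05 with a median of -0.36. Without both, 12 of 12 had positive slopes, from 0.53 to 1.55 with a median of 1.09, and 9 rose. Fbxw24 had a slope of -0.47 ± 0.15 over all embryos (SE; edgeR adjusted p = 0.0162) and 1.09 ± 0.20 without both (adjusted p = 0.00113). Fbxw20 had slopes of -0.69 and 1.27 (adjusted p = 0.00745 and 0.0658), and Fbxw27 of -0.61 and 0.88 (adjusted p = 0.00852 and 0.091). Fbxw28 had slopes of -0.46 and 1.55, the steepest of the cluster without both. Fbxw14, Fbxw18, Fbxw19 and Fbxw22 did not pass over all embryos, with slopes of -0.35, -0.13, 0.05 and -0.30, and rose without both, with slopes of 1.53, 1.13, 1.04 and 1.28. Control replicates 1 and 3, at scores near the upper end, also had high cluster levels. Without all 4, 11 of 11 tested cluster genes kept a positive slope with a median of 0.58, and 0 passed (edgeR, smallest adjusted p = 0.147). In that set 0 of 60 tested members passed in either direction, against 0.273% of all tested genes rising and 0.0356% falling. At an unadjusted p under 0.05, 9 members rose and 3 fell, against 7.1% of all tested genes rising and 2.47% falling.

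Cluster genes were alike among themselves over the embryos. The median Spearman correlation was 0.52 over the 66 pairs of tested cluster genes and -0.02 over the 1887 other pairs of members. It was 0.42 and -0.02 over 29 embryos, and 0.29 and -0.01 over the 27 without all 4. Fbxw14 and Fbxw24 were the most alike, with 0.91 over 31 embryos and 0.86 over 27. Shared sequence, shared libraries and depth enter these values, and their part was not tested.

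**Figure D5:**
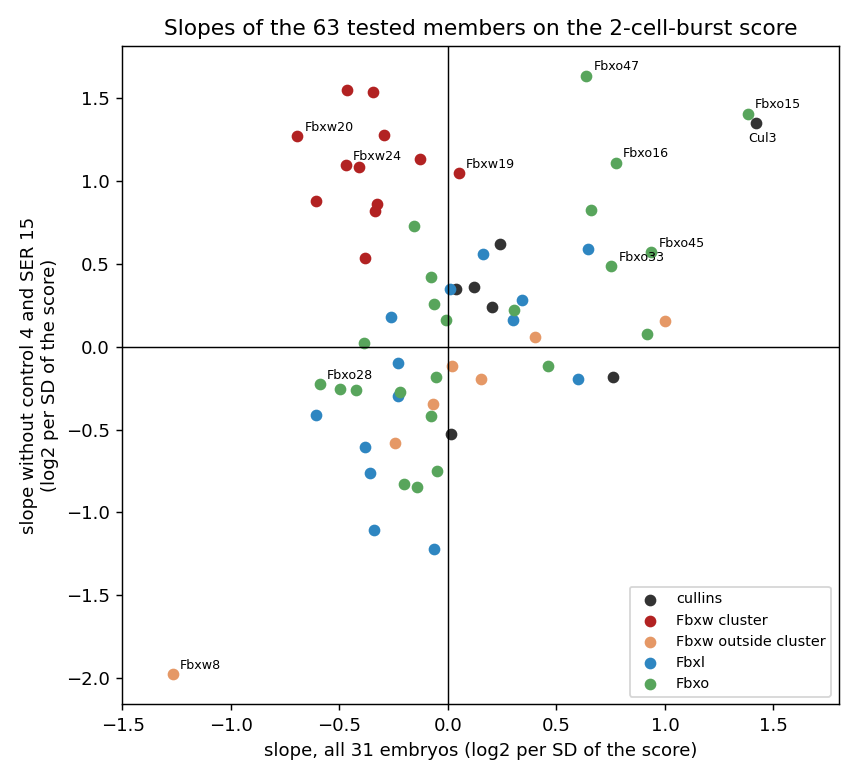
Slope of each of the 63 tested members on the 2-cell-burst score with all 31 embryos (x axis) and without control replicate 4 and SER replicate 15 (y axis), in log2 units per SD, in colours by class. Cul3 and Fbxo15 sit at the upper right and Fbxw8 at the lower left, and the 12 cluster genes lie above 0 on the y axis, 11 of them left of 0 on the x axis.

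Partners of these ligases were followed with a list of 52 genes, of which 49 were in the table and 45 were tested. Between SER and control 0 were called (edgeR, smallest adjusted p = 0.403), 14 were higher and 31 lower, and their median log2 fold change was -0.17. At an unadjusted p under 0.05, 0 were higher and 6 lower, against 2.18% and 3.55% of all tested genes. Cks1b, the accessory subunit of the Skp2 ligase, was measured at 373 ± 353 CPM in control and 201 ± 43.4 CPM in SER embryos, with a log2 fold change of -1.01 (edgeR adjusted p = 0.403), and Cks2 at 845 ± 777 and 475 ± 153 CPM. The RING protein Rbx1 was measured at 197 ± 174 and 118 ± 34.0 CPM, and the signalosome subunit Cops9 at 229 ± 169 and 135 ± 43.0 CPM. The spread of each was wider in control embryos, and the highest value was that of control replicate 3 for Cks1b (1627 CPM), Cks2 (3297 CPM) and Rbx1 (815 CPM) and that of control replicate 1 for Cops9 (678 CPM). With the score 13 of the 45 rose and 6 fell over all embryos, against 21.7% and 13.7% of all tested genes. Without both, 6 rose and 1 fell, against 6.44% and 1.02%. Elob and Eloc, the elongins that join receptors to Cul2 and Cul5, had slopes of 1.16 and 0.96 over all embryos and 0.54 and 1.37 without both. Keap1, the Cul3 receptor for Nrf2, had slopes of -0.60 and -1.45 (adjusted p = 0.050 and 0.00106).

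Of 7 F-box genes under other symbols, 6 were tested and 0 were called between SER and control. At an unadjusted p under 0.05, 1 was higher, against 2.18% of all tested genes. Kdm2b, an F-box protein of CpG islands, was measured at 55.7 ± 42.4 CPM in control and 97.5 ± 32.8 CPM in SER embryos, with a log2 fold change of 0.74 (edgeR adjusted p = 0.73). The paper, with DESeq2 after batch correction, names Kdm2b among its most significant differentially expressed genes. Btrc, the other β-TrCP gene, had a slope of -0.71 on the score over all embryos (adjusted p = 0.000812) and -0.55 without both (adjusted p = 0.364). Of these 6, 2 rose and 2 fell with the score over all embryos, against 21.7% and 13.7% of all tested genes. Without both 0 passed, against 6.44% rising and 1.02% falling. Of the 19 oocyte genes 18 were tested. Between SER and control 0 were called, with 3 higher and 15 lower. At an unadjusted p under 0.05, 1 was lower, against 3.55% of all tested genes. With the score 1 of them rose and 10 fell over all embryos, against 21.7% and 13.7% of all tested genes. Without both, 2 rose and 0 fell, against 6.44% and 1.02%. The 2 embryos with the lowest scores were those highest for this list, so that its fall over all embryos is not a separate result. The median slope of the list was -0.32 over all embryos and 0.13 without both, against -0.36 and 1.09 for the tested cluster genes.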

How the data were processed

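Per the study's methods and the labels, the authors handled identifier-carrying and internal Smart-seq3 reads apart: STAR alignment to mm10, deduplication by UMI-tools or Picard, then merging and FeatureCounts. The annotation, strand setting and versions are not given in the sources used here. The deposited values are whole-number counts per gene, not normalized. Which batch an embryo belongs to is in neither labels nor columns, so the ComBat-seq batch correction that the authors ran before DESeq2 could not be repeated. No libraries held the same values, and all 31 embryos entered the main comparisons.

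From the deposited counts, genes kept by filterByExpr (minimum count 10, minimum total 15) entered a quasi-likelihood test (edgeR 4.0.16 with limma 3.58.1 in R 4.3.3) with TMM and Benjamini-Hochberg adjustment over all tested genes at 0.1. The same fit with the 2-cell-burst score and the group gave the slopes. SE is the log2 value divided by the square root of F. Permutation tests of single members drew 100000 resamples, 2-sided. CPM used library totals, and exon lengths and positions GENCODE vM21, in which all members were found. Depth limits the low members, and internal reads carry no molecular identifier. Alternatives were DESeq2 1.42.0, RLE in place of TMM in the edgeR fit, voom with quality weights, other filters and library size as a covariate. Thinning, 3 estimated clusters of embryos, the replicate number as a block and leaving out embryos were also used. Both fits were tested on simulated data. There the group comparison called 30.4% of 2-fold and 93.2% of 4-fold changes, so that 2-fold changes between groups can be missed. These shares are over the changed genes of the simulation and not for the members alone. The median biological coefficient of variation was 0.817 over the tested members and 0.995 over cluster genes, against 0.679 over all tested genes. Fewer changes may therefore be called in the members. The score fit called 90.9% of 2-fold and 100% of 4-fold changes per SD of the score. Control replicate 4 and SER replicate 15 lay at -3.40 and -2.72 SD of the score, and shares without them were not estimated.

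Named were all cullins, all cluster genes with counts, the 6 highest per length of each other class, and the 5 members in each direction with the smallest p in each fit. Members, lists and rules were chosen with earlier results of these data known.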

Additional observations from a re-analysis of the deposited data

How the results depend on the processing

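No member was called between SER and control under any alternative except limma voom with quality weights, which called 4, and leaving out each embryo gave 0 to 0. Of all tested genes 0.397% were called with DESeq2, 2.83% with no filter and 0.478% with 3 estimated clusters of embryos. DESeq2 gave part of the members no adjusted p and could not call them. The median log2 fold change of the members stayed between -0.12 (library size as a covariate) and 0.09 (without control replicate 3), beside a median SE of 0.457 per member. With library size as a covariate, 25 members were higher and 38 lower in SER embryos. At an unadjusted p under 0.05 in that edgeR fit, 0 were higher and 5 lower, against 150 and 342 of all 8571 tested genes. Of the 10 members named for SER, Fbxo36 changed sign with voom, to 0.0485, and Cul5 passed with it, at an adjusted p of 0.0615. The difference in the members' share of counts was 0.0318 percentage points, 0.0108 with TMM-scaled totals, 0.0323 without the cluster and 0.003 without control replicate 4 and SER replicate 15.

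The number of members rising with the score was 12 (21.7% of all tested genes), 5 with voom (12.2%), 15 with DESeq2 (28%) and 15 with 3 estimated clusters (5.4%). It was 0 without 4 embryos, the farthest embryos and control replicates 1 and 3 (0.273%). With each embryo left out it was 8 (without SER replicate 15, 12.8%) to 13 (as without control replicate 15, 1963 of 8348 genes). Of the 15 with 3 clusters, 4 were among the 12, and 10 were Fbxw cluster genes, 5 of which fell in the fit without clusters. Control replicate 4 and SER replicate 15 alone made up a cluster of embryos, so that this fit is close to leaving both out. The number falling was 12 (13.7%), 10 with voom (11.8%) and with DESeq2 (14.7%), and 3 with 3 estimated clusters (1.74%). It was 2 without control replicate 4 and SER replicate 15 (1.02%), 1 when library size was added to that (15 of 8551 genes), and 0 without 4 embryos (0.0356%). With each embryo left out it was 3 (without SER replicate 15, 4.28%) to 15 (as without control replicate 3, 1254 of 8497 genes). The slope of Fbxw20 turned to 1.46 with 3 clusters, 1.27 without both embryos and 1.37 with library size as well, that of Fbxw27 to 1.17, 0.88 and 0.90, and to 0.46 without 4 embryos, and that of Fbxo9 to 0.0245 and 0.0687 without both embryos and with library size as well. The cause was not tested. Chosen after seeing the data were the fits without 4 embryos, those with both embryos left out that add library size or compare the groups, and the single-embryo omissions for the score.

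With the replicate block 0 members were called between groups. With the score 8 members rose and 6 fell, against 1366 and 604 of all 8550 tested genes. Deviations of same-numbered embryos correlated at -0.37 to 0.49, over 0.1 in 8 of 15 pairs, and 2 SER embryos correlated best with their own number. The median was 0.11 over the same-numbered pairs and -0.004 over the other pairs of a control and a SER embryo. The numbers were not taken as pairs in the main fits, and whether they carry a shared male or batch was not tested.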
